A study of Drosophila melanogaster with 2 samples.

Results

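The chemosensory receptor and odorant-binding genes of Drosophila melanogaster were examined for regions bound by the transcription factor ladybird early (Lbe). They were taken as the protein-coding genes of the Ensembl annotation of assembly BDGP6 whose symbol is Or, Gr, Ir or Obp followed by digits and a letter. The rule gave 230 of 13945 protein-coding genes on the chromosome arms. These were 59 odorant receptors (Or), 60 gustatory receptors (Gr), 60 ionotropic receptors (Ir) and 51 odorant-binding proteins (Obp). The rule reads gene symbols alone and no measured value. Lbe is a homeodomain protein. Chromatin bound by it was precipitated from intact embryos between 0 and 24 h of age, both sexes pooled, and the DNA was sequenced (ChIP-seq). The 1 group was a stable transgenic line that makes Lbe with GFP at its C-terminus, precipitated with an antibody against GFP, in 2 biological replicates from separate embryo samples. The driver of the transgene is not given in the sources used here. No line without the fusion and no input was analysed here, so every value describes Lbe-GFP embryos and none compares conditions.

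Flies detect odours and tastes through sensory neurons in the antennae, maxillary palps, mouthparts, legs and wings, and larvae through neurons of the head organs. Odorant receptors form ligand-gated channels with the common coreceptor Orco, gustatory receptors detect sugars, bitter compounds and carbon dioxide, and ionotropic receptors descend from glutamate receptors and work with coreceptors such as Ir25a. Odorant-binding proteins are small secreted proteins, many of them made by support cells around the sensory neurons. Each receptor is typically made in few cells, and in whole embryos such cells are a small part of the sample.

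The deposited region lists give the start, end, summit and signal of each region in genome build dm6. One list holds 4782 peaks that passed the irreproducible discovery rate (IDR) comparison of both replicates, of which 4753 lie on the chromosome arms. The pooled list and the lists of replicate 1 and replicate 2 hold 29999 regions each and include weak, background-level regions. Rank 1 is the region with the highest signal of its list. The files hold no read counts, so the depth behind a region is unknown, and 95% Wilson intervals below cover the counting of genes only. A gene is called marked where a summit lies within 1000 bp of the start site (TSS) of any of its transcripts.

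Few chemosensory genes were marked by Lbe-GFP. An IDR summit lay at 4 of 230 chemosensory genes, which is 1.74% (95% interval 0.678 to 4.39%), against 24.4% of all protein-coding genes. In the pooled list 29 were marked, or 12.6% (8.92 to 17.5%), against 51.8% of all genes. Replicate 1 marked 35, or 15.2%, against 56.3%, and replicate 2 marked 29, or 12.6%, against 51.7%. When each list was cut to its strongest 4782 regions, replicate 1 marked 5 (2.17%) against 25.7%, and replicate 2 marked 3 (1.30%) against 22.3%. The pooled list cut in this way marked 4 chemosensory genes against 24.4% of all genes. These were the same 4 as in the IDR list, and both lists marked 3409 of all genes. The cut pooled list thus repeats the IDR result and adds no separate one. The share was thus below that of all genes in both replicates and at both levels of strength. The genes were not tested against other gene families, and no test was made of these differences.

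The share of marked genes varied between the families, and these differences were not tested. No odorant receptor had an IDR summit (0 of 59, which allows a share of up to 5.08%), and no gustatory receptor had one (0 of 60, up to 5%). The ionotropic receptors had 2 of 60 (3.33%) and the odorant-binding proteins 2 of 51 (3.92%). In the pooled list the marked genes were 4 odorant receptors (6.78%), 9 gustatory receptors (15%), 5 ionotropic receptors (8.33%) and 11 odorant-binding proteins (21.6%). Replicate 1 marked 4, 9, 7 and 15 genes of these families in the same order, and replicate 2 marked 5, 8, 6 and 10. The odorant-binding proteins had the highest share in both replicates and stayed below all genes in both.

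**Figure D1:**
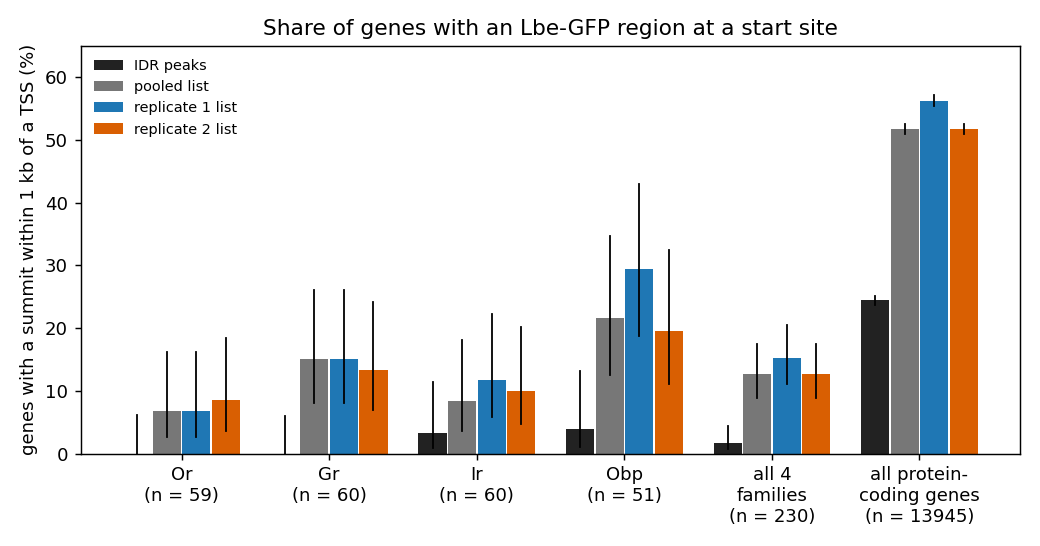
Share of genes (%) with an Lbe-GFP summit within 1000 bp of a TSS, by family (Or, n = 59; Gr, n = 60; Ir, n = 60; Obp, n = 51) and for all 13945 protein-coding genes, in the IDR and pooled lists and in each replicate, with 95% Wilson intervals that cover the counting of genes only. Every family lies below all genes in each list, and in the pooled list the families run between 6.78% and 21.6% against 51.8%.

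The regions at the marked genes were weak ones. Of the chemosensory genes, 4 had their strongest pooled region in the strongest 4782, 9 in the middle part of the list, 16 in the weakest part and 201 (87.4%) had none. Over all genes the matching shares were 24.4%, 19.8%, 7.57% and 48.2%. The IDR peaks at the 4 marked genes stood at ranks 3006 to 4665 of 4782, with signals of 101 to 131 beside a median of 147 over the list, on the authors' scale. None of them was above the middle of the IDR list, where the stronger peaks marked 13.7% of all genes.

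These 4 genes were Obp93a, Ir76a, Ir60e and Obp83g. The DNA at their summits is shown for those on the chromosome arms 3L and 3R, with stretches at other members that the results turn on. Sequences are from the RefSeq release 6 genome (dm6 coordinates, plus strand, 5′ to 3′) and leave out annotated untranslated bases, apart from the short sites. Capitals mark any of 6 words on either strand. They are TATCGATA (the DNA replication-related element, DRE), GGTCACAC (core promoter Motif 1), GAGAGA (the GAGA factor word), TATAAA (the TATA box), TAATTA (a homeodomain core) and TAACTA (a ladybird-type core). The words can overlap each other. The short sites are chr3L:19801316-19801345 (Ir76a) and chr3L:3896883-3896912 (Gr63a). The longer stretches are chr3R:21130092-21130215 (Obp93a), chr3R:6112491-6112691 (Obp83g), chr2L:11113159-11113359 (Gr32a), chrX:10460566-10460735 (Or9a) and chr3R:23486816-23487016 (Ir94h). Those of Or9a and Ir94h hold none of the words.
Ir76a: aataaatctgcTATCGATAacataacggag
Obp93a: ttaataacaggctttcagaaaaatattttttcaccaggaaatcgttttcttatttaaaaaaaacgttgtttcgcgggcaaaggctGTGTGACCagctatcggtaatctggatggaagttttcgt
Obp83g: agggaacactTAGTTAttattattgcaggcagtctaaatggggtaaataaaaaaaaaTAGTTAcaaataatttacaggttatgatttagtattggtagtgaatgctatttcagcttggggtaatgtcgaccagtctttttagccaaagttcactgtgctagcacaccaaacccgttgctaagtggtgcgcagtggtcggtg
Gr63a: ggatctagtccGGTCACACtggtgggtgtg
Gr32a: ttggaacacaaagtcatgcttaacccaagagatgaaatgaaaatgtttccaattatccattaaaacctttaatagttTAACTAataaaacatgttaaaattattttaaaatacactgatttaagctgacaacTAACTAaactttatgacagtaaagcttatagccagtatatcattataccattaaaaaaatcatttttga
Or9a: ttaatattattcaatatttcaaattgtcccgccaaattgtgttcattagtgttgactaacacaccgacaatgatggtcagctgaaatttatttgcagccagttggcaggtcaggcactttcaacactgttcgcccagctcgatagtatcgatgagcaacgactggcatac
Ir94h: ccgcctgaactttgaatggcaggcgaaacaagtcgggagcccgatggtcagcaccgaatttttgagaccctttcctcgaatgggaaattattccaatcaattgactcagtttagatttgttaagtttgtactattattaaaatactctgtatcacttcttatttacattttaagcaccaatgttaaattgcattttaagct
The Ir76a, Obp93a and Gr63a sequences lie near the start of a gene outside the families. The Obp83g stretch is the IDR summit with no other protein-coding start near it. Gr32a, Or9a and Ir94h were each among the strongest regions of a replicate.

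Ir76a encodes an antennal ionotropic receptor. Its gene (FBgn0260874, 3L, 19799278 to 19803427, plus strand) has 3 start sites, and the IDR summit at 19801413 lay 5 bp upstream of an internal one, within an intron of the longest transcript. The gene CG14102, on the opposite strand, starts 122 bp from the summit, and its start is 39 bp from an internal start of Ir76a. The region ranked 3487 in the IDR list (signal 120), 2503 in replicate 1 and 11060 in replicate 2. The region was therefore among the strongest 4782 of replicate 1 and well outside them in replicate 2. The window of 201 bp around the summit held the DRE word and TAATTA.

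Obp93a (FBgn0038859, 3R, 21128950 to 21129717, minus strand) is an odorant-binding protein gene. The IDR summit at 21130192 lay in intergenic DNA 475 bp upstream of it and 24 bp upstream of Ice2, a gene on the plus strand whose start is 499 bp from that of Obp93a. It ranked 3006 in the IDR list (signal 131), 3018 in replicate 1 and 6663 in replicate 2. Of the 4 marked genes it had the strongest IDR peak, and the nearer start site was that of the neighbour. The summit window held Motif 1, seen in the printed stretch as its reverse complement.

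Obp83g (FBgn0046875, 3R, 6111671 to 6112302, minus strand) had its IDR summit at 6112591, 289 bp upstream, in intergenic DNA with no other protein-coding start within 1000 bp. This was the weakest of the 4 peaks, at rank 4665 of the IDR list (signal 101), rank 7941 in replicate 1 and rank 4579 in replicate 2. It was the only one of the 4 that replicate 2 placed among its strongest 4782. The same peak lay 1557 bp upstream of Obp83ef, another odorant-binding protein gene. The window held TAACTA on the minus strand, printed as TAGTTA.

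Ir60e (FBgn0035019, 2R, 24529554 to 24531272, minus strand) is an ionotropic receptor gene. The IDR summit at 24531534 lay 262 bp upstream of it and 60 bp from the start of CG13585, which points the other way, with 322 bp between the starts. The region ranked 3753 in the IDR list (signal 114.7) and 3041 in replicate 1. In replicate 2 the strongest region within 1000 bp of Ir60e ranked 6761, with its summit at 24532127 and 855 bp from Ir60e, and a weaker region had its summit 262 bp away. Replicate 1 had its stronger summit 281 bp and its weaker one 839 bp from Ir60e. Both replicates thus held both sites, each 60 bp or less from a start of CG13585, and they differed in which was stronger. Replicate 2 also had a weaker region of rank 18391 whose summit at 24531281 lay 9 bp from the start of Ir60e, the nearest protein-coding start.

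**Figure D2:**
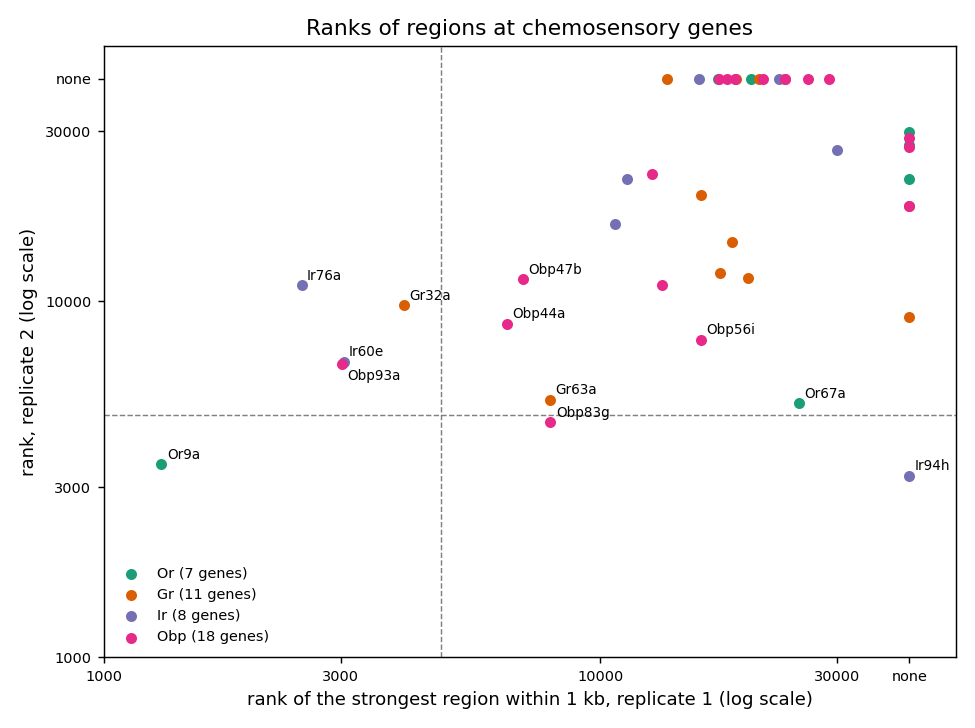
Rank of the strongest region within 1000 bp of a TSS in replicate 1 (x axis) and replicate 2 (y axis), on log scales, with one point for each of the 44 chemosensory genes marked in either replicate, coloured by family, and "none" where a replicate has no such region. Dashed lines mark rank 4782, and Or9a alone lies among the strongest 4782 in both replicates.

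The replicates shared part of their marked genes. Both marked 20 chemosensory genes, which is 57.1% of those of replicate 1 and 69.0% of those of replicate 2, while over all genes the shared share was 79.5% and 86.5%. Replicate 1 alone marked 15 and replicate 2 alone marked 9. No list marked 185 of the 230. In the strongest sets, Gr32a, Ir60e, Ir76a and Obp93a were marked by replicate 1 alone and Ir94h and Obp83g by replicate 2 alone. A member that both replicates placed in their strongest set was found once, at Or9a.

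Or9a is an odorant receptor gene whose IDR peak fell just outside the window. Its nearest IDR summit lay 1010 bp upstream and ranked 1871 (signal 165), above all 4 peaks inside the window. That summit was 50 bp from the start of Neb-cGP. In replicate 1 the summit lay 990 bp upstream of Or9a with rank 1306, and in replicate 2 it lay 920 bp upstream with rank 3491. A small shift of the summit between lists therefore decided whether Or9a counted.

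Further members lay near the edge of the window. Obp28a, an antennal odorant-binding protein gene, had an IDR summit 1013 bp downstream of its start, and 45 bp from the start of Ziz. Gr39b had one at 1319 bp, nearest to the start of CG8665, and Gr5a, which encodes a trehalose receptor, had one at 1400 bp within Tre1, a G protein-coupled receptor gene. At Gr89a the nearest IDR summit lay at 1327 bp, and its own start was the nearest protein-coding start. Inside the window the farthest IDR summit was that of Obp93a at 475 bp, so no chemosensory gene had its nearest one between 475 and 1000 bp.

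Below the IDR list, 9 gustatory receptors had a pooled region, and 5 of these (Gr39b, Gr47b, Gr77a, Gr93c and Gr93d) have no protein-coding start outside the families within 1000 bp of their own. The pair with the highest pooled ranks did have one. Gr32a, a receptor used in bitter and pheromone sensing, had a pooled region of rank 5102 (signal 94.6) 755 bp upstream and 198 bp from the start of Idua, a lysosomal enzyme gene. It ranked 4017 in replicate 1 and 9724 in replicate 2. Gr63a, which forms the carbon dioxide receptor with Gr21a, had a pooled region of rank 5701 (signal 87.8), with its summit 46 bp from the start of Lamtor4 and inside a coding exon of that gene. It ranked 7917 in replicate 1 and 5286 in replicate 2. Gr63a was marked in both replicates, and Gr21a was marked in no list, with its nearest pooled summit 38549 bp away.

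Other members with a high pooled rank were Obp47b (7567), Obp44a (8443), Obp99b (11299), Ir25a (12148), Ir31a (12312) and Gr5a (13657). All 6 were marked in both replicates, but at Obp44a and Ir31a the replicates had their strongest summit at different places. At Obp44a it lay in intergenic DNA at 8136025 in replicate 1 and in a coding exon at 8134740 in replicate 2. At Ir31a it lay 770 bp upstream in replicate 1 and 382 bp downstream in replicate 2. Ir25a, the widely used ionotropic coreceptor, had its pooled summit 87 bp upstream of its start within the 3′ UTR of tank, with rank 11308 in replicate 1 and 22014 in replicate 2. Obp47b, Ir31a and Gr5a each have another protein-coding start within 1000 bp of one of their own, and Obp44a, Obp99b and Ir25a have none. Ir94h had the strongest region of replicate 2 at any chemosensory gene, at rank 3233 and 585 bp upstream, with no other protein-coding start close by, and replicate 1 had no region there. Or67a ranked 5178 in replicate 2 and 25194 in replicate 1.

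Because 3 of the 4 IDR peaks lay beside another gene, the genes were divided by whether a protein-coding gene outside the families starts within 1000 bp. Among other protein-coding genes with an IDR summit, 2195 of 3405 had one too, so a neighbour beside a peak was common over all genes. Such a neighbour was present at 34 chemosensory genes (14.8%), against 43.0% of other protein-coding genes. Among those 34, an IDR summit marked 3 (8.82%, 95% interval 3.05 to 23.0%), against 37.2% of other genes with a neighbour. Among the 196 chemosensory genes without a neighbour it marked 1 (0.510%), against 15.5% of other genes without one. The pooled list gave 11 of 34 (32.4%) against 64.9% with a neighbour, and 18 of 196 (9.18%) against 43.0% without. In replicate 1 the shares were 38.2% against 70.3% with a neighbour and 11.2% against 46.9% without, and in replicate 2 they were 35.3% against 65.7% and 8.67% against 42.4%. The chemosensory share was the lower one in both classes in all 4 lists. Among the strongest 4782 regions of replicate 2 the order of the classes was the other way round for chemosensory genes. There 0 of 34 were marked with a neighbour (which allows up to 8.82%) and 3 of 196 (1.53%) without. The 3 were Ir94h, Obp83g and Or9a. Or9a was classed as without a neighbour because Neb-cGP starts 1060 bp from it, just past the limit. The IDR summit nearest to Or9a lay 50 bp from the start of Neb-cGP. Whether the neighbours are transcribed in these embryos was not measured.

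**Figure D3:**
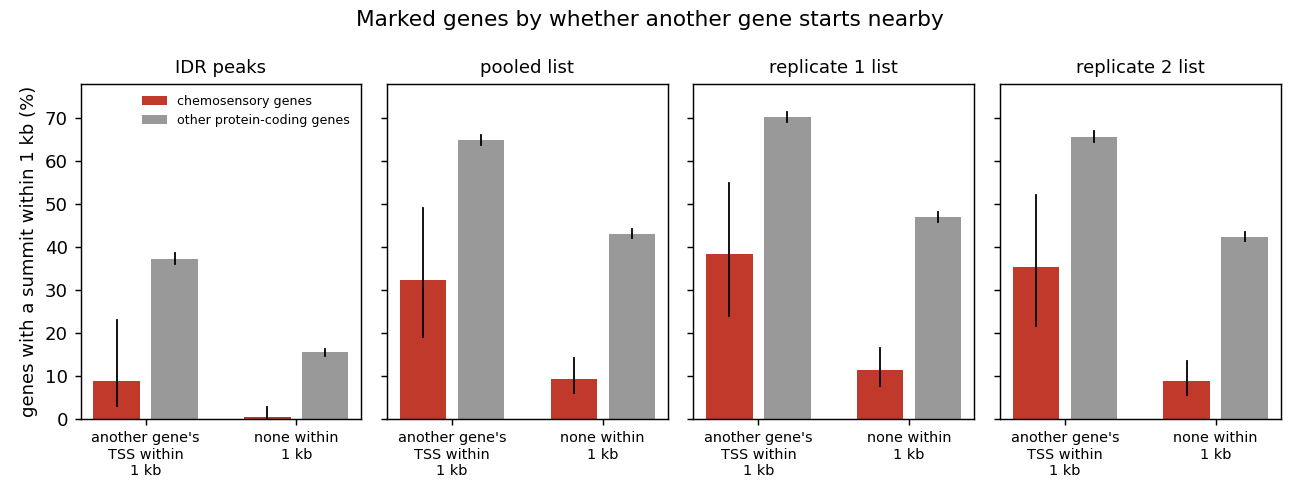
Share of genes marked (%) in each list, for chemosensory genes (n = 34 with and 196 without a neighbour) and other protein-coding genes, divided by whether a protein-coding gene outside the families starts within 1000 bp, with 95% Wilson intervals that cover the counting of genes only. In these 4 lists genes with a neighbour have the higher share in both gene groups, and chemosensory genes lie below other genes in both classes.

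For the 29 chemosensory genes in the pooled list, the protein-coding start nearest to the strongest summit was a chemosensory one at 21 and that of another gene at 8. At Gr93c, counted among the 21, the start of the noncoding gene asRNA:CR44087 was nearer, at 266 bp against 454 bp for Gr93c. Over all genes, the marked gene's own start was the nearest protein-coding one in 75.2% in the pooled list and in 70.5% in the IDR list. A protein-coding neighbour thus held the nearer start for a minority of the pooled regions, while at the IDR peaks it did so for Obp93a and Ir60e. Ir76a and Obp83g held the nearer start themselves.

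The scarcity of summits reached beyond the start sites. The median distance from a chemosensory gene to the nearest IDR summit was 20950 bp, against 7320 bp for all genes. It was longest for the odorant receptors, at 31238 bp, and shortest for the ionotropic receptors, at 15352.5 bp. Within 10000 bp, 168 chemosensory genes (73.0%) had no IDR summit, against 44.6% of all genes. In the 500 bp upstream of the gene start there were 1.30 IDR summits per 100 chemosensory genes and 16.5 per 100 of all genes, and in the pooled list 8.26 and 44.0. The pooled value for chemosensory genes was above those of the adjacent bins, which held 4.35 farther upstream and 2.61 downstream of the start. It was not the highest pooled bin, as 11.3 lay 5000 to 4500 bp upstream and 10 lay 3000 to 2500 bp upstream. In the IDR list the bin 3000 to 2500 bp upstream held 3.04, above the 1.30 at the start. In replicate 1 the start bin and its 2 adjacent bins, from upstream to downstream, held 5.22, 11.3 and 1.74 summits per 100 chemosensory genes. The bin 3000 to 2500 bp upstream held 11.3 as well, as many as the start bin. In replicate 2 the same 3 bins around the start held 4.35, 6.52 and 4.78, while the bin 5000 to 4500 bp upstream held 13.9. A local rise at the start of chemosensory genes was not tested. Within gene bodies an IDR summit was found for 1 chemosensory gene, Ir76a (0.435%), against 12.1% of all genes. Chemosensory genes are short, with a median length of 1498.5 bp against 2166 bp for all genes, and the part of length in this difference was not tested.

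**Figure D4:**
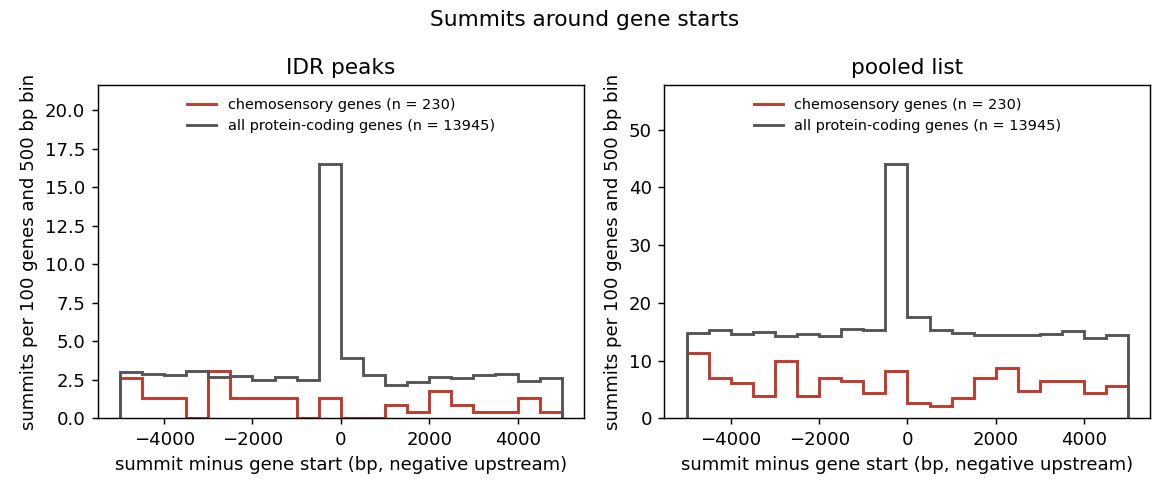
Summits per 100 genes in bins of 500 bp from 5000 bp upstream (negative) to 5000 bp downstream of the gene start, for chemosensory genes (n = 230) and all protein-coding genes (n = 13945), in the IDR list (left) and the pooled list (right). The bin just upstream of the start holds 1.30 IDR summits per 100 chemosensory genes against 16.5 for all genes, and 8.26 pooled summits against 44.0.

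Receptors of known role were compared with the 24.4% of all genes marked in the IDR list and the 51.8% in the pooled list, though lists of 2 to 5 genes are too short for their shares to be read. Of the coreceptors Ir8a, Ir25a and Ir76b, 1 of 3 had a pooled region (Ir25a) and none an IDR summit. Of the 9 sugar receptors none had an IDR summit, Gr5a had a pooled region, and replicate 2 also marked Gr61a. Of the 2 carbon dioxide receptors 1 was marked in the pooled list (Gr63a), and of 5 broadly used bitter receptors 1 (Gr32a). The larval odorant receptors, whose neurons form in the embryo, had no IDR or pooled summit at any of 25 genes, which allows a share of up to 12%. Replicate 1 placed a weak region at Or49a, at rank 17246, and replicate 2 marked none of them. Among 17 antennal ionotropic receptors, Ir76a had an IDR summit, and Ir25a, Ir31a and Ir76a had pooled regions (17.6%). Each replicate marked these 3 and Ir68a (23.5%).

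Other genes linked to chemosensation were examined for comparison. A list of 8 possible partners held Orco, the binding protein lush, the membrane proteins Snmp1 and Snmp2, and a5, a10, EbpIII and Phk-3. Whether the last 4 act with these receptors was not examined. Of the 8, none had an IDR summit and 1, Phk-3, had a pooled region. Replicate 1 marked EbpIII, Phk-3 and Snmp2 (37.5%) and replicate 2 marked Phk-3 alone (12.5%). Of 16 transcription factors known to act in chemosensory neurons or their precursors, 3 had an IDR summit and 10 (62.5%) a pooled region, against 24.4% and 51.8% of all genes. The 3 were Xbp1 at rank 803, Dll, the appendage and antennal selector gene, at rank 1118, and zf30C at rank 1292. Each replicate marked 11 of the 16. The difference between regulators and receptors was not tested.

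Annotation differed between the groups in ways that touch the position of a start site. No transcript with a 5′ UTR is annotated for 136 of the 230 chemosensory genes (59.1%), against 3.52% of all genes, so for these the annotated start is that of the coding sequence. Such genes were 43 odorant, 39 gustatory and 48 ionotropic receptors and 6 odorant-binding proteins. Among genes with an annotated 5′ UTR, 2 of 94 chemosensory genes (2.13%) had an IDR summit, against 25.2% of all such genes. Among genes without one, it was 2 of 136 chemosensory genes (1.47%) against 13 of 355 other genes (3.66%). A pooled region was found at 12 of these 136 (8.82%) against 69 of 355 (19.4%). A single start site was annotated for 90.9% of chemosensory genes and 73.5% of all genes. Among genes with 1 start site, 1.44% of chemosensory genes had an IDR summit against 18.8% of all. Chemosensory genes also stood in clusters, with 104 of them (45.2%) having another within 5000 bp.

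The promoter words differed in part. In the window from 250 bp before to 50 bp after the gene start, read from the RefSeq release 6 genome on both strands, the DRE word was found at 1 chemosensory gene, Gr68a (0.435%), against 9.36% of all genes and 15.7% of genes with an IDR summit. Motif 1 was found at none of 230, which allows a share of up to 1.30%, against 7.70% of all genes and 10.9% of genes with an IDR summit. GAGAGA was found at 6.96% against 12.3%. TATAAA was found at 57.8% against 45.8%, and TAATTA at 42.2% against 20.4%. TAACTA was found at 18.3% against 16.7%. At genes with an IDR summit the shares were 13.1% for GAGAGA, 45.8% for TATAAA, 21.9% for TAATTA and 19.5% for TAACTA. For TATAAA the families lay on both sides of all genes. It was found at 30% of gustatory receptors, below all genes. It was found at 55% of ionotropic receptors, 70.59% of odorant-binding proteins and 77.97% of odorant receptors. TAATTA was above all genes in each family, from 31.67% of ionotropic to 58.33% of gustatory receptors. The differences between families were not tested. The A+T content was 60.3 ± 5.98% over chemosensory promoters and 60.9 ± 7.74% over all (SD over genes), and this difference was not tested. In these windows the DRE and Motif 1 words, more frequent at genes with an IDR summit, were rare at chemosensory genes. TAACTA was also more frequent at genes with an IDR summit (19.5%, against 15.8% of genes without one), but was not rare at chemosensory genes. The homeodomain core was more frequent at chemosensory genes than at all genes. Whether any word bears on marking was not tested. For the 59.1% of chemosensory genes with no annotated 5′ UTR, against 3.52% of all genes, the window lies around the coding start. The words were not counted apart for these genes, so the part of annotation in the differences was not tested.

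**Figure D5:**
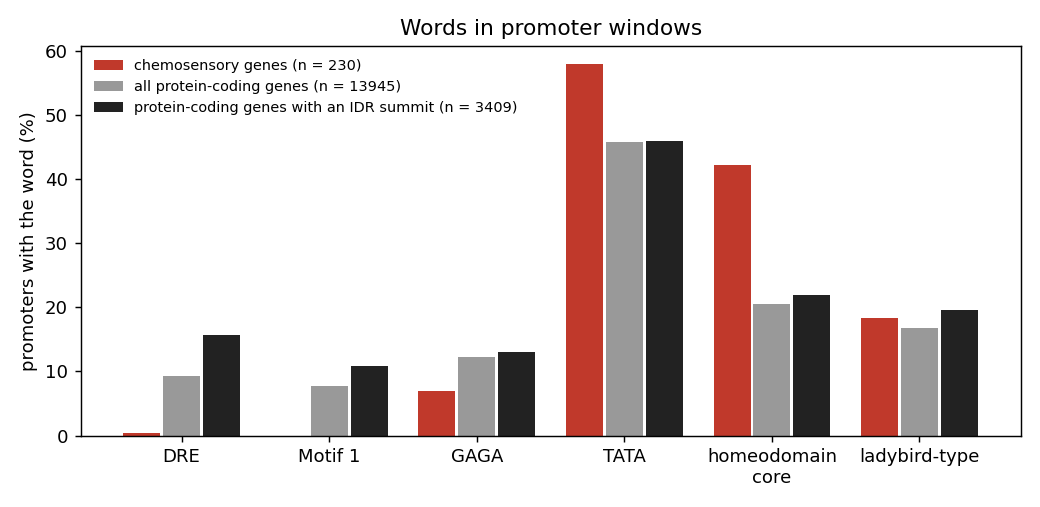
Share of promoter windows (%, 250 bp before to 50 bp after the gene start) that hold each of 6 words on either strand, for chemosensory genes (n = 230), all protein-coding genes (n = 13945) and protein-coding genes with an IDR summit. The DRE word is at 0.435% of chemosensory genes against 9.36% of all, and the homeodomain core is at 42.2% against 20.4%.

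The words were also counted in the 201 bp around the strongest summit of the 29 chemosensory genes with a pooled region. DRE was at 1 (Ir76a, 3.45%), Motif 1 at 2 (Obp93a and Gr63a, 6.90%) and GAGAGA at 1 (3.45%). TATAAA was at 7 (24.1%), TAATTA at 5 (17.2%) and TAACTA at 5 (17.2%). Around all IDR summits on the chromosome arms the shares were 5.05% for DRE, 2.76% for Motif 1 and 15.0% for GAGAGA. They were 34.0% for TATAAA, 15.6% for TAATTA and 11.4% for TAACTA. Only 4 of the 29 pooled regions were among the strongest 4782, so the 2 sets differ in strength, and their shares were not tested. The 3 summits with DRE or Motif 1 each lay 122 bp or less from the start of a gene outside the families. A word is a match of letters and does not show that a factor was bound.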

How the data were processed

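Lbe-GFP ChIP-seq of whole embryos was analysed in 1 group of 2 biological replicates, numbered by the labels. The region lists are narrowPeak files in dm6. The signal of each region was given by the authors' peak caller on a scale that is not stated, so it ranks regions within a list. The q-value is deposited as −log10 and played no part in the ranks. Summits come from adding the deposited offset to the start. The aligner is not given in the sources used here, nor is the caller. Control data, which the labels name, and the dm3 lists were not used here.

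Summits were assigned to every gene with a TSS within 1000 bp, using the Ensembl annotation of BDGP6 and nuclear chromosomes alone, with Python 3.11.15, numpy 2.4.6 and scipy 1.17.1. Peak width, signal and depth per sample cannot be turned into read counts, so precision is given as 95% Wilson intervals, or 3 counts over the total for a count of 0, for counting error only. No test was run, since there is 1 group. The assignment was tested on simulated data. Named genes were marked members of the IDR list or a strongest set, the 12 with the highest pooled rank, the 10 nearest to an IDR summit, and role lists. The gene families that make up the members, and the lists, were chosen for description with earlier results of these data known, while the rule itself reads symbols alone. Alternatives were other windows, start sites, list cuts and neighbour rules.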

Additional observations from a re-analysis of the deposited data

How the results depend on the processing

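Of 45 alternatives, 29 left a count within 1.5 times or a distance within its spread, and 16 moved it. In all 44 that give a share of genes, the chemosensory share stayed below that of all genes. For the IDR list, where 4 genes were marked, windows of 2000 and 5000 bp gave 13 (29.2% of all genes) and 34 (42.5%). Gene bodies with 1000 bp around them gave 9 (30.2%), and the nearest start alone gave 2 (18.0%). The stronger peaks gave 0 (13.7%), and genes with a 5′ UTR gave 2 (25.2% of all such genes). The 5′ UTR and single start site settings were chosen after seeing the data. Using 1 replicate's strongest regions in place of the IDR list gave 3 (22.3% of all genes, replicate 2) and 5 (25.7%, replicate 1). For the pooled list, with 29, the wider windows gave 46 (57.2% of all genes) and 80 (68.5%). Its strongest regions gave 4 (24.4%) and genes with a 5′ UTR 17 (53.1% of all such genes). For replicate 1, with 35, the wider windows gave 59 (62.5%) and 91 (73.9%), and the strongest regions 5 (25.7%). For replicate 2, with 29, the wider windows gave 45 (57.8%) and 104 (70.2%), and the strongest regions 3 (22.3%). The wider windows and shorter lists change these counts by construction. With so few marked genes, single peaks decide the IDR count. Depth is unknown, so weak binding in a small part of the embryo cannot be told apart from none. No paired analysis was possible because there is 1 group.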

Other observations

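Further chemosensory families outside the rule were looked at in the same way. Of 20 CheA and CheB genes, which encode secreted proteins of taste organs, 1 had an IDR summit and 4 a pooled region, and replicate 1 marked 7 and replicate 2 marked 4. The IDR summit lay upstream of CheA56a at rank 1721, with rank 2113 in replicate 1 and 1472 in replicate 2. Of 29 pickpocket sodium channel genes none had an IDR summit, which allows a share of up to 10.3%, and 4 had a pooled region, with 2 marked in replicate 1 and 6 in replicate 2. Over all genes the shares were 24.4% and 51.8%.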
